A study of Rattus norvegicus with 16 samples.

Results

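The fall of *Cxcl1* in rat hepatoma cells with silenced *Pdrg1* was followed across 10 genes, of the 26269 gene names on the array: the chemokines *Cxcl1*, *Cxcl2*, *Cxcl16*, *Cxcl10*, *Cxcl12*, *Ccl2* and *Ccl20*, and *Nfkb1*, *Nfkbia* and *Tnfaip3* of the NF-κB system. The group was chosen by the loss of *Cxcl1* signal against the control clone on these same arrays, and the other members were added by name as chemokines or NF-κB genes. The comparisons of *Cxcl1* with the control are therefore given as a description with no test. The array files name 9 of the 10 genes by symbol. *Tnfaip3* was read through the name LOC683206, the rat gene that the file describes as the A20 protein.

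The samples were 16 one-color Agilent arrays of H35 cells, a rat hepatoma line, with 4 biological replicates in each of 4 groups. All cells had been transfected with shRNA plasmids and selected with the antibiotic G418. CN-10 is a stable clone with a negative control sequence, 4–18 a stable clone with the shRNA4 sequence against *Pdrg1*, 3–44 a stable clone with the shRNA3 sequence, and shRNA3T a pool transfected transiently with shRNA3 and enriched by selection. The clones were picked by their RTqPCR results after a second round of selection at a higher dose that the pool did not receive. Each stable line is 1 clone, so what a clone carries by itself and what the silencing does cannot be told apart, and the pool was compared with a clone. Slide and group cannot be told apart either, because the arrays of a group shared 1 slide that held no other group, and 4–18 was also scanned apart from the rest, on a different day. In these bulk RNA samples fewer cells that express a gene and less RNA per cell give the same value. The probe of *Pdrg1*, the silenced gene, read lower on every silenced array than on any CN-10 array. Its log2 difference was -0.77 (4–18), -0.99 (3–44) and -0.85 (shRNA3T), with a standard error of 0.34, and limma gave adjusted p values of 0.129, 0.105 and 0.143. With the replicate number as a block in the limma model, the differences were the same and the adjusted p values were 0.0176, 0.0108 and 0.0183. Replicate 1 was the lowest array of *Pdrg1* in every group, CN-10 included, and the value in 4–18 was -0.33 without its replicate 1. With replicate 1 of every group left out the differences were -0.41 (adjusted p = 0.00647), -0.82 (adjusted p = 0.000306) and -0.79 (adjusted p = 0.000212), none of them 2-fold. In 4–18 the difference passed 2-fold with median centring of the arrays (-1.27, limma adjusted p = 0.00598) and with no scaling between arrays (-1.51, adjusted p = 0.02).

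Chemokines are small secreted proteins that draw leukocytes along a gradient through receptors with a heptahelical fold. *Cxcl1* and *Cxcl2*, which share the receptor Cxcr2, attract neutrophils, and hepatocytes make them in inflammation. NF-κB is a family of dimeric transcription factors held in the cytoplasm by IκB proteins until a signal such as TNF, interleukin 1 or a bacterial product leads to IκB breakdown. *Nfkbia* (IκBα) and *Tnfaip3* (A20) are inhibitors of the pathway and its targets at the same time, so their transcripts are often read as a gauge of its activity, as are *Cxcl1* and *Cxcl2*.

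The starts of the genes were looked at for the sequence to which NF-κB binds, because it is the feature that these chemokines and the inhibitors are known to share. RefSeq promoters (build GRCr8, 250 bases before to 50 after the annotated start) were at hand for 9 members, without *Ccl2*. The textbook κB consensus was searched on both strands: a run of G of length 3, a purine, any base, A or T, a pair of pyrimidines and CC. Overlapping matches were joined. It occurred in 7 of the 9 promoters, those of *Cxcl1*, *Cxcl2*, *Cxcl10*, *Ccl20*, *Nfkbia*, *Nfkb1* and *Tnfaip3*, and in neither that of *Cxcl16* nor that of *Cxcl12*. Of all 33469 promoters of this length 4.18% held it, and of the 29 chemokine promoters 24.1%. The 120 bases before the start are shown for *Cxcl1*, *Cxcl2*, *Nfkbia* and *Cxcl16*, each 5′ to 3′ on the strand of the gene, with the match in capitals. Among the members not shown, this stretch held a match in *Ccl20* and *Tnfaip3* and none in *Cxcl10*, *Nfkb1* and *Cxcl12*.
*Cxcl1* (chr14:17479322-17479441, minus strand): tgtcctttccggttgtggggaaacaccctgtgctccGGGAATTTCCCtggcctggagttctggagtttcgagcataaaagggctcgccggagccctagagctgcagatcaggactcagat
*Cxcl2* (chr14:17467256-17467375, minus strand): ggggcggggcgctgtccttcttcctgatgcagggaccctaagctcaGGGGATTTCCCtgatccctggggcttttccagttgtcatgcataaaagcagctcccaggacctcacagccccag
*Nfkbia* (chr6:78597073-78597192, minus strand): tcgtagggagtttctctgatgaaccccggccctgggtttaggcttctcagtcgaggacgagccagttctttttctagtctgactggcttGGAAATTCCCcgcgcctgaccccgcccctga
*Cxcl16* (chr10:55669951-55670070, minus strand): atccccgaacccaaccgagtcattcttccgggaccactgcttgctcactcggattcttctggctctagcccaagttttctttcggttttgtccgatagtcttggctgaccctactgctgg
The match began 84 bases before the start in *Cxcl1*, 74 in *Cxcl2* and 31 in *Nfkbia*. Over all promoters the stretch of 120 bases held a match in 1.59%. These are letters in a window, and binding was not measured.

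*Cxcl1* was bright in the control clone and far dimmer in every silenced group. Its normalized log2 intensity on the arrays of replicates 1 to 4 was 13.17, 12.92, 13.43 and 12.77 in CN-10. In 4–18 it was 8.47, 8.51, 9.02 and 8.70. In 3–44 it was 10.14, 10.41, 10.38 and 10.41, and in shRNA3T 9.82, 9.92, 10.05 and 9.77. The groups did not overlap, with CN-10 highest, then 3–44, shRNA3T and 4–18. The difference from CN-10 was -4.39 in 4–18, -2.73 in 3–44 and -3.18 in shRNA3T on the log2 scale, each with a standard error of 0.14. That is a signal 21.0-fold lower in 4–18, 6.66-fold lower in 3–44 and 9.07-fold lower in shRNA3T.

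**Figure D1:**
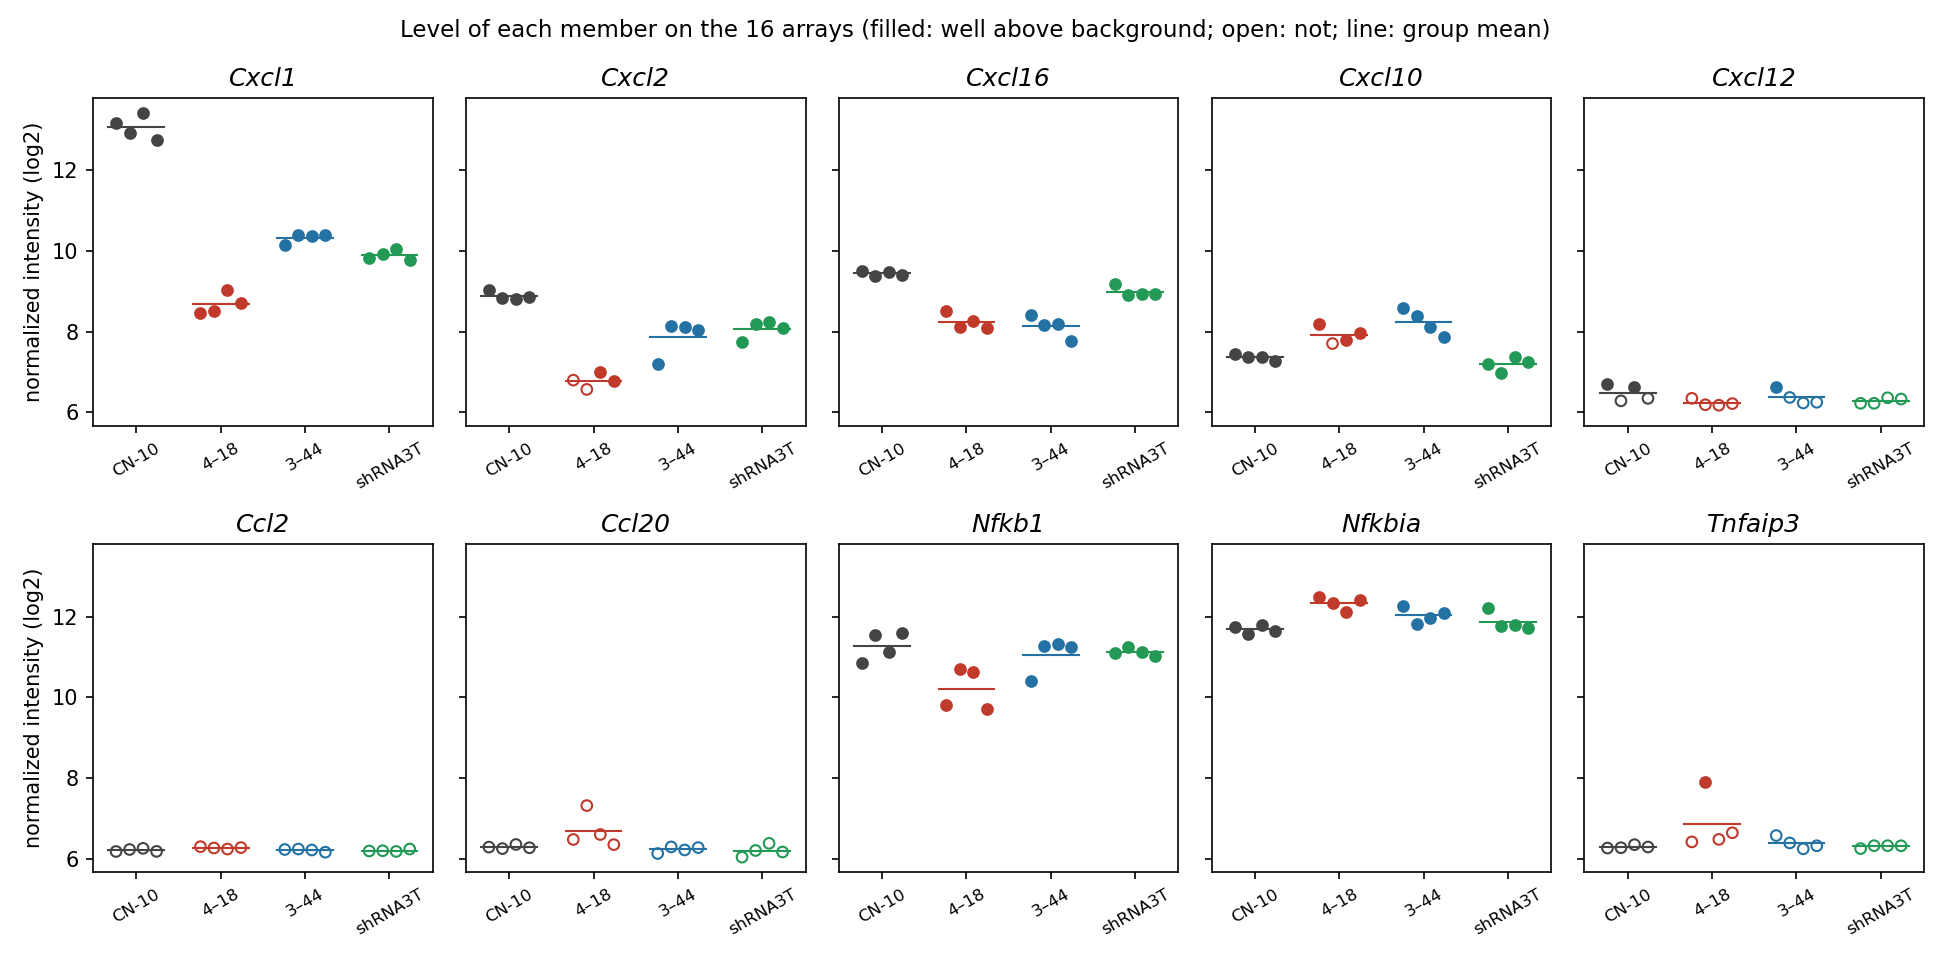
Normalized intensity of each member (vertical axis, log2) on every array of the 4 groups (horizontal axis), with 1 point per array, filled where the probe was well above background, and a line at the group mean. *Cxcl1* lies between 12.77 and 13.43 in CN-10 and between 8.47 and 9.02 in 4–18, *Nfkbia* stays between 11.57 and 12.48 throughout, and *Ccl2*, *Ccl20* and most points of *Cxcl12* and *Tnfaip3* are open.

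The *Cxcl1* probe (A_42_P473398, rn4 chr14:18690468-18690527, minus strand) is printed 10 times on each array, so its spread within an array could be read. The mean of the raw spot intensities was between 8643 and 15036 in CN-10 and between 237 and 344 in 4–18, over a local background of 30.3 to 51.2 on all arrays. The SD between its spots was 0.90 on the array of replicate 1 of 3–44 and 0.75 on that of replicate 1 of shRNA3T, against 0.16 to 0.19 on the other arrays of these groups. Over the 1390 probes with 10 spots the median SD was likewise higher on these arrays, at 0.47 and 0.37, than on their companions (0.16 to 0.19). It was 0.34 to 0.44 on the arrays of 4–18 and 0.25 to 0.36 on those of CN-10. The part of this unevenness in the values of replicate 1 was not tested, and results are given below without replicate 1 where they change.

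**Figure D2:**
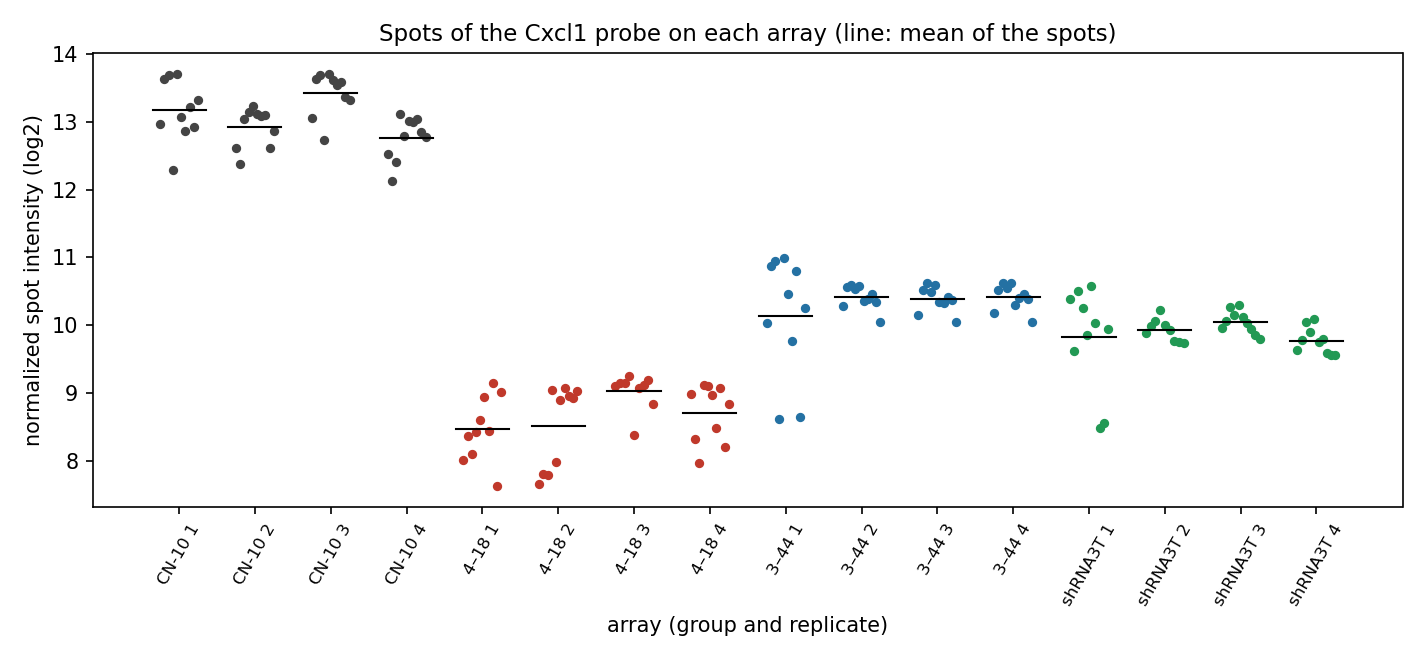
Normalized intensity (vertical axis, log2) of the single spots of the *Cxcl1* probe on each array (horizontal axis, group and replicate), with a line at their mean. The lowest spot in CN-10, at 12.13, is above the highest spot of any silenced group, 10.99 in replicate 1 of 3–44, the array with the widest scatter.

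Between silenced groups, in comparisons that hold no control array, *Cxcl1* differed as well. Its level in 4–18 differed from that in 3–44 by -1.66 (limma adjusted p = 1.02e-06, standard error 0.14) and from that in shRNA3T by -1.21 (adjusted p = 2.53e-05). At their smallest over all alternatives tried these differences were -1.59 and -1.14, and both were called under every one. The clone 3–44 and the pool shRNA3T, which carry the same shRNA3, differed by 0.45 (95% interval 0.13 to 0.76, adjusted p = 0.0641), with no overlap of the arrays. An exact permutation test, two-sided, gave p = 0.0286, and no smaller value is possible with 4 arrays in each group.

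*Cxcl2*, the closest relative by function, fell too, by less. Its level was 9.02, 8.83, 8.81 and 8.85 in CN-10 and 6.80, 6.57, 6.99 and 6.78 in 4–18, where 2 of the 4 arrays were well above background. It was 7.19, 8.14, 8.10 and 8.03 in 3–44 and 7.73, 8.19, 8.25 and 8.08 in shRNA3T. Every silenced array was below every CN-10 array, and 3–44 and shRNA3T overlapped. Against CN-10 limma gave -2.09 for 4–18 (adjusted p = 8.8e-07) and -1.01 for 3–44 (adjusted p = 0.00247), with a standard error of 0.18. The size in 4–18, where the probe was near background, ran from -3.94 with scaling by the 75th percentile to -1.74 with median centring. For shRNA3T the difference was -0.81 (adjusted p = 0.00743), which is under the 2-fold limit. With scaling by the 75th percentile it was -1.22 (limma adjusted p = 0.00632) and was called. The value in 3–44 sits at the limit. It was -0.79 without replicate 1 of 3–44, -0.96 without replicate 1 of CN-10, and -0.74 with replicate 1 of every group left out, and was no longer called. As with *Cxcl1*, 4–18 was lower than the other silenced groups, with a difference of -1.08 from 3–44 (adjusted p = 0.000466) and -1.28 from shRNA3T (adjusted p = 0.000123). Neither call held under every setting. The former was -0.99 without replicate 2 of 3–44, and with median centring of the arrays the values were -0.69 and -0.90, none of them called. With no scaling they were -0.80 (adjusted p = 0.314) and -1.11 (adjusted p = 0.102), and the difference of 3–44 from CN-10 was -1.19 (adjusted p = 0.361). None of these was called with the deposited series values either. With scaling by the 75th percentile the differences of 4–18 from 3–44 and shRNA3T were larger, at -2.52 and -2.71. The clone 3–44 and shRNA3T did not separate (-0.20, 95% interval -0.59 to 0.19, adjusted p = 0.584).

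*Cxcl1* and *Cxcl2* are neighbours on chromosome 14, and their probes lie 13.3 kb apart on rn4. The longest run of bases shared by the probes of these genes was 6 of 60. Of the probes within 250 kb of that of *Cxcl1*, 8 others, *Cxcl2* included, were above background throughout at least 1 group. In 4–18, 3 of them were called lower (3.73% of all genes) and 0 higher (2.79%), in 3–44 2 lower (0.826%), and in shRNA3T 1 higher (1.23%) and 0 lower (1.25%). A probe could enter through the group where it was bright, so nothing is read from these counts. The 8 include *Cxcl3*, another ligand of Cxcr2, 95.8 kb away, whose brighter probe was above background on every CN-10 array and on none of 4–18. It was at least 2.35-fold lower there (limma adjusted p = 1.08e-06). In 3–44 this probe differed from CN-10 by -0.99 and in shRNA3T by -0.45, not called in either. The 8 also include *Areg*, which is not on the list of chemokines. It was called lower in 4–18 (-1.10) and in 3–44 (-1.15), and was at -0.52 in shRNA3T, not called. Of the 8 probes, 8 were below 0 in 4–18, 6 in 3–44 and 6 in shRNA3T, with medians of -0.78, -0.52 and -0.45. The same limit holds for these counts, and whether the neighbours fell together was not tested.

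*Cxcl16*, a membrane-bound chemokine that also serves as a scavenger receptor, fell in the clones. Its level was 9.51, 9.38, 9.48 and 9.41 in CN-10 and 8.51, 8.12, 8.26 and 8.08 in 4–18. In 3–44 it was 8.42, 8.16, 8.20 and 7.77, and in shRNA3T 9.19, 8.91, 8.94 and 8.92. The clones overlapped each other, and shRNA3T lay between them and CN-10 without overlap. Both clones were called, with a difference from CN-10 of -1.20 in 4–18 (limma adjusted p = 5.25e-06) and -1.31 in 3–44 (adjusted p = 1.27e-05). For shRNA3T it was -0.45 (adjusted p = 0.0269), under 2-fold, and the standard error was 0.12 throughout. *Cxcl1* was lowest in 4–18, whereas for *Cxcl16* the clones could not be told apart (4–18 against 3–44 0.11, 95% interval -0.17 to 0.38, adjusted p = 0.604), while the pool was higher than 4–18 (difference of 4–18 from shRNA3T -0.75, adjusted p = 0.000509) and than 3–44 (-0.85, adjusted p = 0.000398). These differences passed 2-fold and were called with scaling by the 75th percentile, the former at -1.36, and the former also with no scaling (-1.07) and with the deposited series values (-1.03).

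*Cxcl10*, an interferon-induced ligand of Cxcr3, did not follow *Cxcl1*. Its level was 7.44, 7.37, 7.36 and 7.28 in CN-10. It was 8.20, 7.71, 7.79 and 7.97 in 4–18, 8.58, 8.38, 8.11 and 7.86 in 3–44, and 7.20, 6.97, 7.37 and 7.24 in shRNA3T. Both clones lay above CN-10 without overlap, and the pool overlapped it. Limma gave a difference of 0.55 for 4–18 (adjusted p = 0.0105), 0.87 for 3–44 (adjusted p = 0.0013) and -0.17 for shRNA3T (adjusted p = 0.591), each value with standard error 0.14 and under 2-fold in each. The clone 4–18 was above the pool by 0.72 (limma adjusted p = 0.00205), under 2-fold, and was called with scaling by the 75th percentile, at 1.39. Between the groups that share shRNA3, 3–44 was higher than the pool by 1.04 (adjusted p = 0.000244) and was called. That call is narrow, since the value was 0.92 without replicate 1 of 3–44, 0.99 without replicate 2 of 3–44 and 0.96 without replicate 2 of shRNA3T. It was also lost with no scaling (1.10, limma adjusted p = 0.118) and with the deposited series values (1.08, adjusted p = 0.128). No background correction gave 0.88, array weights 0.99 and leaving out replicate 1 of every group 0.92, none of them called.

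The remaining chemokines gave little or no signal in these cells. *Ccl2*, a monocyte attractant with 10 spots per array, and *Ccl20*, the ligand of Ccr6, with 2 probes, were well above background on no array. *Cxcl12*, the ligand of Cxcr4, reached that level on 2 arrays of CN-10 and 1 of 3–44 by its brighter probe and on none by the other. No fold change is read from them, since a fall of *Ccl2* or *Ccl20* could not have been seen and *Cxcl12* was near background also in CN-10.

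**Figure D3:**
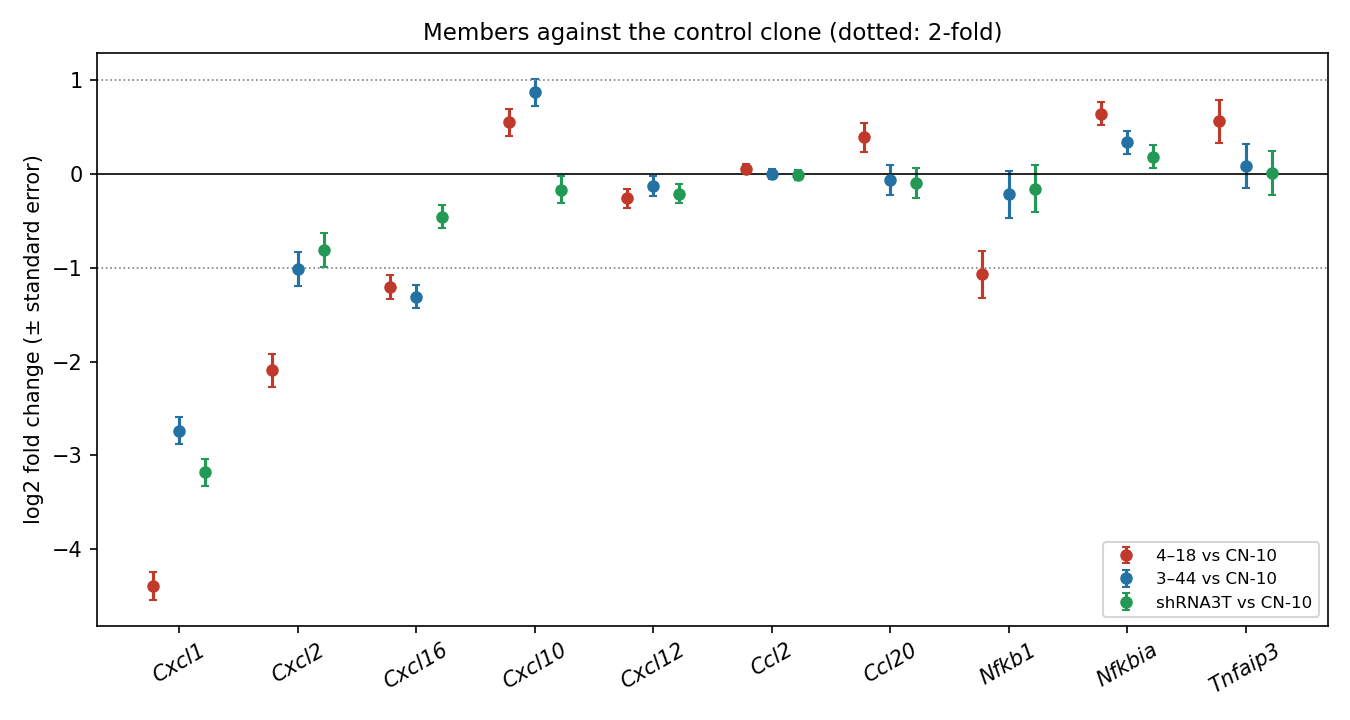
Difference of each member from CN-10 (vertical axis, log2 fold change, bars the standard error of the limma model) in 4–18, 3–44 and shRNA3T, with dotted lines at 2-fold. *Cxcl1*, *Cxcl2* and *Cxcl16* are below 0 in every silenced group, *Nfkb1* is at -1.07 in 4–18 and *Cxcl10* and *Nfkbia* are above 0 in the clones, though *Nfkbia* in 4–18 moves to -0.07 with no scaling between arrays.

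Of the NF-κB genes, *Nfkb1*, which encodes the p105 precursor of the p50 subunit, was lower in 4–18. Its level was 10.85, 11.54, 11.12 and 11.59 in CN-10, 9.80, 10.69, 10.62 and 9.71 in 4–18, 10.41, 11.28, 11.32 and 11.24 in 3–44, and 11.10, 11.24, 11.12 and 11.03 in shRNA3T. Only 4–18 lay apart from CN-10, by a gap that is small beside the spread of its own arrays. Its difference from CN-10 was -1.07 in 4–18 (limma adjusted p = 0.00569, standard error 0.25), -0.22 in 3–44 (95% interval -0.76 to 0.33, adjusted p = 0.72) and -0.15 in shRNA3T (95% interval -0.70 to 0.39, adjusted p = 0.83). The call in 4–18 was lost when any of 4 arrays was left out: -0.98 without replicate 2 and -0.96 without replicate 4 of CN-10, -0.93 without replicate 1 and -0.90 without replicate 4 of 4–18. It was also lost with scaling by the 75th percentile (-0.93), and the value was -1.69 at its largest over the alternatives. Between silenced groups, 4–18 differed by -0.85 from 3–44 (adjusted p = 0.0235) and by -0.92 from shRNA3T (adjusted p = 0.017), under 2-fold in each. These differences passed 2-fold and were called under other scalings, at -1.36 and -1.56 with no scaling between arrays and at -1.26 and -1.34 with median centring. Without replicate 2 of 4–18 they were -1.02 and -1.08 and called, as was the former without replicate 1 of 3–44 (-1.07) and the latter without replicate 3 of 4–18 (-1.05).

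*Nfkbia*, the IκBα inhibitor, was bright on all arrays and was called lower in no group. Its level was 11.75, 11.57, 11.80 and 11.64 in CN-10, 12.48, 12.33, 12.12 and 12.42 in 4–18, 12.26, 11.81, 11.96 and 12.09 in 3–44, and 12.22, 11.77, 11.79 and 11.72 in shRNA3T. Both clones were above CN-10 without overlap. Limma gave 0.65 for 4–18 (adjusted p = 0.00118), 0.34 for 3–44 (adjusted p = 0.122) and 0.18 for shRNA3T (adjusted p = 0.433), each value with standard error 0.12 and none of them 2-fold. The direction in 4–18 changes with the scaling between arrays, and the value there was -0.07 with no scaling between arrays, -0.02 with the deposited series values and 0.98 with scaling by the 75th percentile. In the deposited values, which are unscaled, replicate 4 of 4–18 had a median of 8.90, against 7.23, 7.49 and 7.32 on replicates 1 to 3. The part of this array in the change of direction was not tested. Against the other silenced groups 4–18 was at 0.31 (3–44, adjusted p = 0.0894) and 0.46 (shRNA3T, adjusted p = 0.0139), and at -0.29 and -0.28 with no scaling. *Tnfaip3* was well above background on a single array, replicate 2 of 4–18 (7.89), and the other 15 arrays lay between 6.24 and 6.64, so its level is not known here.

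Counted by the rule of at least 2-fold with an adjusted p under 0.05, 4 of the 10 members were lower in 4–18 (*Cxcl1*, *Cxcl2*, *Cxcl16*, *Nfkb1*), where 3.73% of all genes were called lower, and 0 were higher, against 2.79% of all genes. In 3–44 the numbers were 3 lower (*Cxcl1*, *Cxcl2*, *Cxcl16*; 0.826% of all genes) and 0 higher (0.746%). In shRNA3T *Cxcl1* alone was lower (1.25% of all genes) and 0 were higher (1.23%). The selection used these comparisons and they share the CN-10 arrays, so nothing is read from the counts. Of the members, 6 were above background throughout at least 1 group, as were 16468 of the 26269 genes. At an unadjusted limma p under 0.05 and with no limit on fold, 4 members were higher in 4–18, 2 in 3–44 and 0 in shRNA3T, and, *Cxcl1* aside, 4, 2 and 2 were lower. In 4–18 those higher include *Ccl20* and *Tnfaip3* and those lower include *Cxcl12*, from which no fold is read. The share of all genes at this looser threshold is not given, so nothing is read from these numbers either. The median difference of the 10 members from CN-10, which takes in the 4 at or near background, was -0.10, -0.09 and -0.16 in these groups, beside 0.00268, -0.00776 and -0.0084 over all genes tested. Without *Cxcl1*, whose fall chose the group, it was 0.06, -0.06 and -0.15. Between silenced groups, 2 members were lower in 4–18 than in 3–44 (*Cxcl1*, *Cxcl2*; 3.12% of all genes) and 0 higher (2.21%). The same 2 were lower in 4–18 than in shRNA3T (2.87%) and 0 higher (1.99%). In 3–44 against shRNA3T, 0 were lower (1.22%) and *Cxcl10* was higher (0.986%). At the unadjusted p, 2, 4 and 1 members passed in the directions in which 0 were called. No share of all genes is given for these either, and nothing is read from them.

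**Figure D4:**
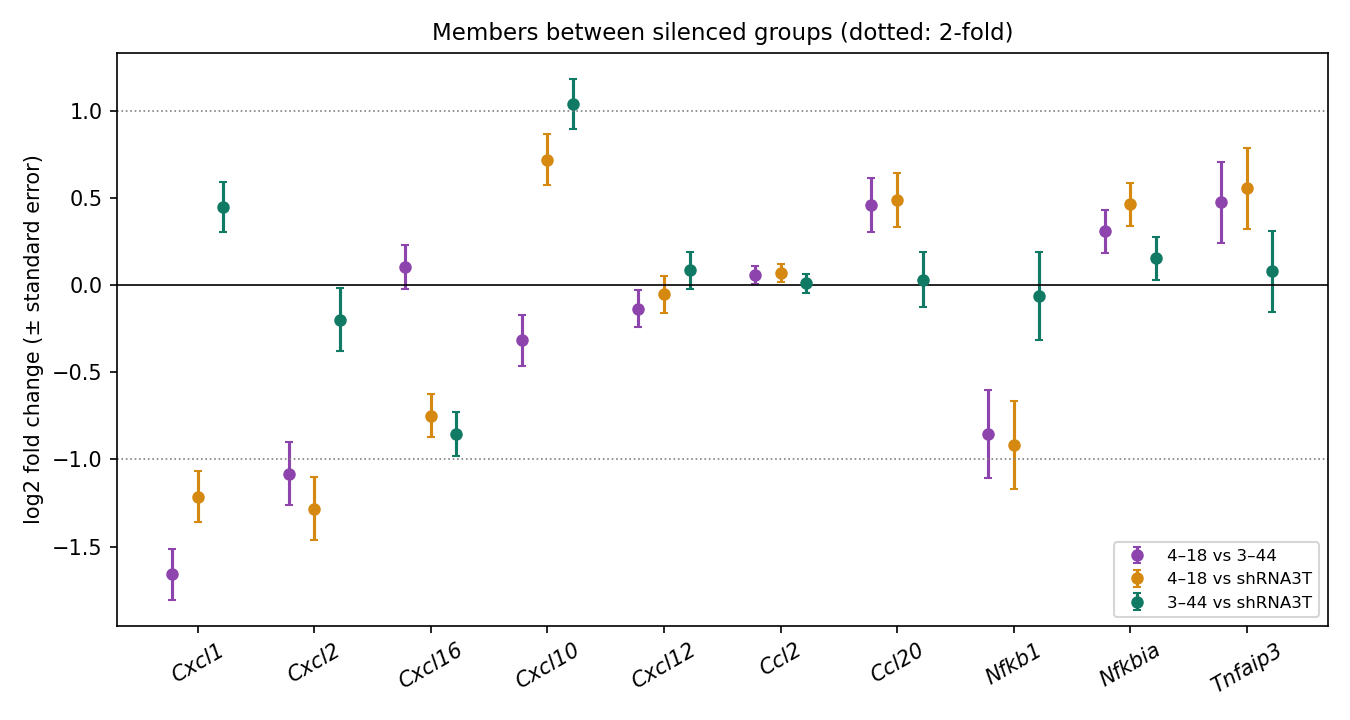
Difference of each member between silenced groups (vertical axis, log2 fold change, bars the standard error of the limma model), with dotted lines at 2-fold. *Cxcl1* and *Cxcl2* are beyond -1 in both comparisons of 4–18, and *Cxcl10* is at 1.04 in 3–44 against shRNA3T.

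The wider pathway was described by 134 further genes on the array: other chemokines, their receptors, NF-κB subunits and regulators, upstream receptors and adaptors, and genes listed as other NF-κB targets. In 4–18, 7 of them were lower and 4 higher than in CN-10, where 3.73% and 2.79% of all genes were called. In 3–44 it was 1 lower and 3 higher (0.826% and 0.746% of all genes), and in shRNA3T 1 and 1 (1.25% and 1.23%). Their median difference was 0.04, 0.01 and 0.01. Only 81 of the 134 were above background throughout at least 1 group, and this median takes in the others, which can show little change. Of the 36 chemokines on the array, members included, 14 gave a signal above background throughout at least 1 group. Beside *Cxcl1*, whose fall chose the group, limma called *Cxcl2*, *Cxcl16* and *Cxcl3* lower in 4–18, *Cxcl2* and *Cxcl16* in 3–44 and 0 in shRNA3T. In shRNA3T these genes were lower by under 2-fold at an unadjusted limma p under 0.05. Chemokines beyond the members and *Cxcl3* were not counted at that threshold, and no share of all genes is given, so nothing is read from it. Against CN-10 only *Cxcl9*, like *Cxcl10* an interferon-induced ligand of Cxcr3, was called higher, in 4–18 (1.35, limma adjusted p = 0.00056). Of the 22 chemokine receptors limma called 0 in each comparison with CN-10. At an unadjusted p under 0.05 there were 6 receptors in 4–18 (2 higher, 4 lower), 4 lower in 3–44 and 2 in shRNA3T (1 each way). Only 7 of the 22 were above background throughout at least 1 group. The share of all genes at the unadjusted threshold is not given, so nothing is read from these counts. *Cxcr2* itself, looked up after these counts were seen, was above background on 3 arrays of CN-10 and on none of the silenced groups.

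Among the 22 NF-κB subunits and regulators, *Map3k14*, the NIK kinase of the non-canonical pathway, was higher in 4–18 by 1.64 (limma adjusted p = 2.53e-05). It was at 0.81 in 3–44 and 0.50 in shRNA3T, neither called. *Ikbke*, an IKK-related kinase, was higher in shRNA3T by 1.23 (adjusted p = 0.032), and was at 0.95 in 3–44 and 0.19 in 4–18, neither called. Of the 26 upstream receptors and adaptors, limma called *Tlr4* higher and *Ripk1* lower in 4–18, *Cd14* higher in 3–44 and 0 in shRNA3T. The shares of all genes are those given for the wider pathway. *Cd14*, a coreceptor for lipopolysaccharide, was higher in 3–44 by 2.04 (adjusted p = 1.73e-06). Its mean difference from CN-10 over the silenced groups was 1.28. *Cd14* was also 1 of 7 leukocyte markers examined. The summed level of these markers lay between 12.31 and 12.67 in 3–44, between 11.08 and 11.35 in CN-10, and between 10.96 and 11.16 in 4–18. Without *Cd14* it was 11.70 to 11.99 in 3–44, 10.7706 to 11.0041 in CN-10, 10.31 to 10.55 in 4–18 and 9.54 to 11.68 in shRNA3T. *Ptprc*, the pan-leukocyte antigen, was at background in all groups, *Cd3e* in CN-10, 4–18 and shRNA3T, and *Cd79a* in 4–18 and 3–44, while 4 of the 7 markers were above background on every array of 3–44 and 5 of 7 in CN-10. Their part in the value of *Cd14* was not tested. *Ripk1*, a kinase downstream of TNF receptors, was called lower in 4–18 by 1 of its probes (-1.01, adjusted p = 0.000824), and its brightest probe was not called.

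Of the 38 genes on the array listed as other NF-κB targets, 5 were lower and 1 higher in 4–18. In 3–44 it was 1 lower and 2 higher, and in shRNA3T 1 lower (*Hamp*) and 0 higher. The shares of all genes are the same as for the wider pathway. The list was set by gene name, and whether NF-κB acts on these genes in H35 cells was not measured. Whether the list differed between the groups was not tested. *Lcn2*, an iron-binding acute phase protein, fell by 3.87 on the log2 scale in 4–18 (limma adjusted p = 2.76e-10). It differed by -0.15 in 3–44 (adjusted p = 0.695) and by -0.84, under 2-fold, in shRNA3T (adjusted p = 0.00231). *Hamp*, the iron hormone hepcidin, differed by -2.28 in 4–18 (adjusted p = 1.25e-08) and by -4.12 in shRNA3T (adjusted p = 7.27e-11). In 3–44, which carries the shRNA of the pool, it was at -0.48, under 2-fold (adjusted p = 0.036). *C3*, the central complement component, *Saa4*, an apolipoprotein, and *Gadd45b* are named after their values were seen. *C3* was at -2.19 in 4–18 (adjusted p = 7.07e-06). It was at -0.25 in 3–44 and 0.75 in shRNA3T, neither called. *Gadd45b*, the gene of this list called higher in 4–18, was at 1.03 there, 0.31 in 3–44 and 0.49 in shRNA3T. *Saa4* was at -1.92 in 4–18 (adjusted p = 1.06e-06) and at 1.11 in 3–44 (adjusted p = 0.000705), by the brighter of its probes. *Bcl2l1*, which encodes the survival factor Bcl-xL, was lower by 1 of its probes in 4–18 (-1.35, adjusted p = 0.00475) and in 3–44 (-1.43, adjusted p = 0.0147, from 3 arrays, since a spot marked as an outlier was left out). Its brightest probe was at -0.88 and -0.90 and not called. *Irf1*, an interferon response factor, was higher in 3–44 by 1.04 by 1 probe (adjusted p = 0.00169), and its brightest probe, at 0.90, was not called (adjusted p = 0.223). That brightest probe was at 0.85 in 4–18 and 0.71 in shRNA3T, where *Irf1* was not called either.

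**Figure D5:**
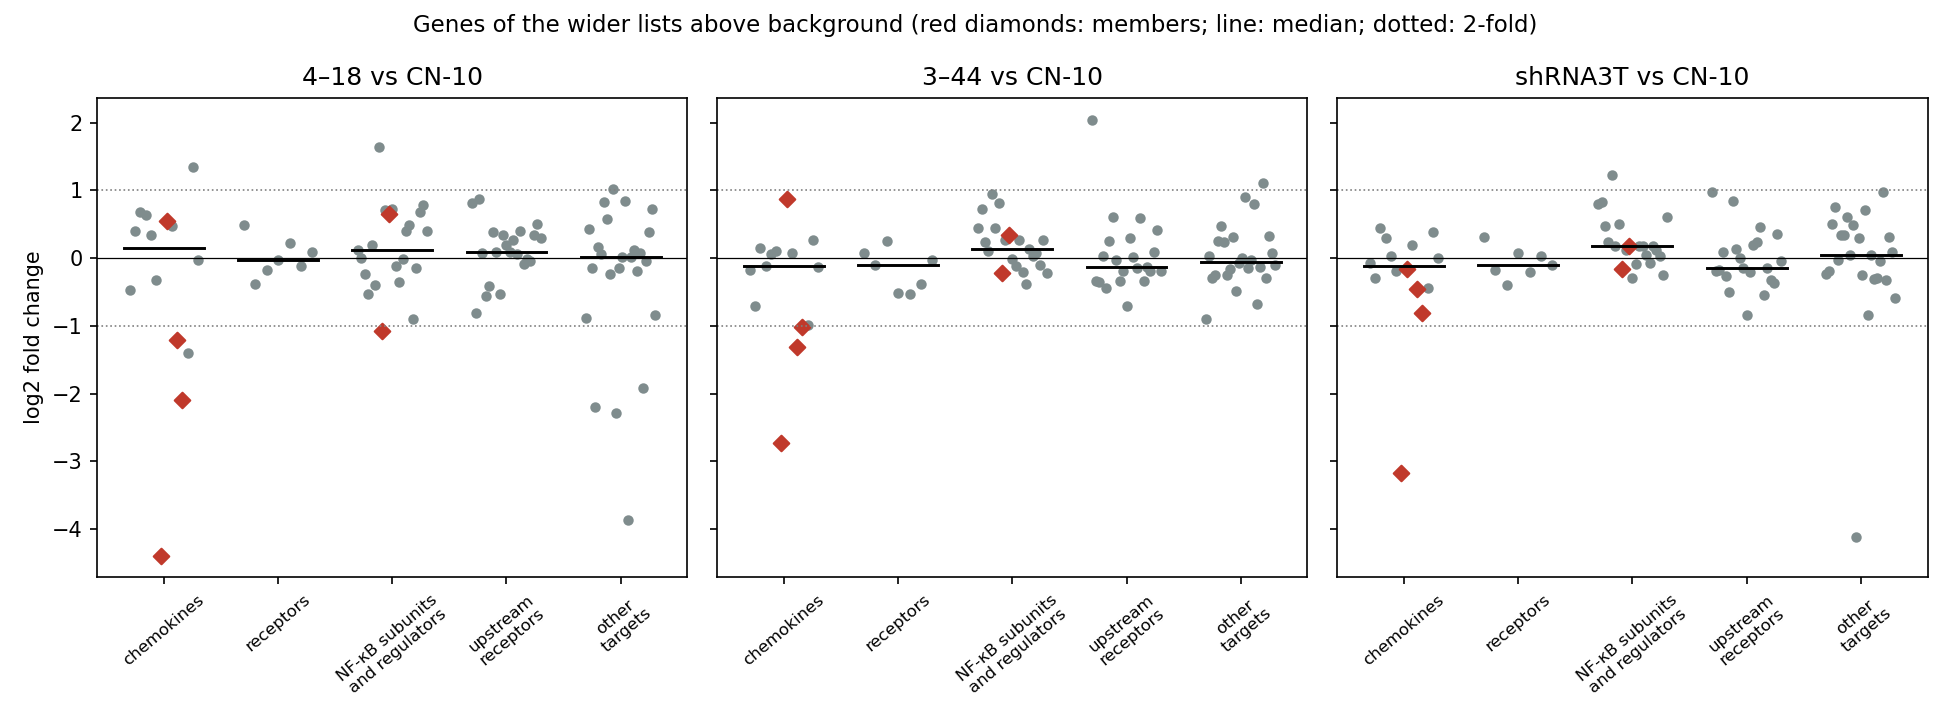
Difference from CN-10 (vertical axis, log2 fold change) of those genes of the 5 lists with signal above background throughout at least 1 group, in 4–18, 3–44 and shRNA3T, with 1 point per gene, red diamonds for members, a line at the median of each list and dotted lines at 2-fold. The medians stay near 0, *Cxcl1* is the lowest chemokine in every panel, and the lowest in the list of other targets are *Lcn2* in 4–18 (-3.87) and *Hamp* in shRNA3T (-4.12).

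The pattern of *Cxcl1* over the 16 arrays was most like that of *Sema3c*, a secreted semaphorin (Pearson r = 0.964), followed by *Arhgap18* (0.963), *Rnase1l2* (0.962), *Il17d* (0.953) and *P2ry6* (0.949). The search took in 12169 probes with a value on every array that were above background throughout at least 1 group and carried a gene symbol rather than an accession. Among the members *Cxcl2* came closest (0.896), then *Cxcl16* (0.727) and *Nfkb1* (0.604). The coefficient of *Cxcl12* (0.603) is not read, since its probe was at or near background on most arrays. The coefficient was negative for *Nfkbia* (-0.748), whose direction in 4–18 changes with the scaling, for *Cxcl10* (-0.363), and for *Ccl2*, *Ccl20* and *Tnfaip3*, which were at background on most or all arrays. These coefficients describe 4 groups of 4 arrays that share a group mean and a slide, and so mostly the order of the group means.

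As a check of the cells, all 8 hepatocyte markers examined, among them *Alb* and *Hnf4a*, were well above background on every array of CN-10, 3–44 and shRNA3T, and 6 of 8 on every array of 4–18. Of the 3 endothelial markers on the array, 1 was above background on every array of each group and *Pecam1* on none. Of 6 markers of stellate cells or fibroblasts, 4 were so on every array of CN-10, 3–44 and shRNA3T and 1 on every array of 4–18, and their summed level lay between 9.85 and 10.22 over all arrays. Of the gene spots, 53.1% to 74.3% per array were well above background and none was saturated. The arrays of 4–18 were the dimmest (75th percentile of the processed signal 1613 to 1878, against 2290 to 3647 on the others).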

How the data were processed

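RNA of 16 samples of H35 cells was labelled with Cy3 and read on one-color Agilent rat arrays, which the authors quantified with Feature Extraction (version 10.7.3.1). The deposited intensity values are the mean signal and local background of each spot on a linear scale, not normalized, with flags for spots above background and outliers. A processed signal and a series table of log2 values were deposited too. The latter had lost its decimal points, and once restored equalled log2 of the normexp-corrected median signal, unscaled between arrays. The paper's methods name limma. Members and gene lists were chosen with earlier results of these data known.

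The intensities were corrected for background by normexp (offset 50) with limma 3.58.1 (R 4.3.3), control and outlier spots were left out, arrays were quantile normalized, and replicate spots were averaged per probe. A linear model on the 16 arrays had 1 mean for each group, with moderated variances (eBayes), and p-values were adjusted over all 30367 probes (Benjamini-Hochberg). A call needs 2-fold and an adjusted p under 0.05 by any probe of a gene. Genes called both ways were left out of counts. A gene's values are those of its brightest probe. All 10 members were named, and of each wider list up to 4 genes with the largest mean change among called genes above background. Where a probe was at background in a whole group, fold changes are bounds against the dimmest signal above background. Steps were tested on simulated data. The number of arrays limits the precision. Probe positions are those of the files (rn4). Exons and UTRs at those positions are not given, as no rn4 annotation was used. Alternatives covered scaling, background correction, filters, fold limit, replicate block, array weights and single arrays left out. Leaving out replicate 1 of every group was added after the values were seen.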

Additional observations from a re-analysis of the deposited data

Results flagged for a closer look

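On single arrays, a member stood apart from the other 3 arrays of its group in 7 of 40 tests of a gene in a group. Chance gives about 1 in 20 for a single test, but the tests share arrays, so no excess over chance is read from the number. Replicate 1 of 3–44 was low for *Cxcl1* (10.14), *Cxcl2* (7.19) and *Nfkb1* (10.41). Replicate 1 of shRNA3T was high for *Cxcl16* (9.19) and *Nfkbia* (12.22) and low for *Tnfaip3* (6.25), which was at background there. Replicate 2 of 4–18 was high for *Tnfaip3* (7.89). On both replicate 1 arrays the spots of a probe also scattered more than on the other arrays of their groups, with a median SD of 0.47 in 3–44 and 0.37 in shRNA3T over probes with 10 spots. It was 0.34 to 0.44 on the arrays of 4–18 and 0.25 to 0.36 on those of CN-10. The part of this scatter in the values was not tested.

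For 3 members a difference between silenced groups was both 2-fold and under an adjusted p of 0.05 by limma. *Cxcl1* differed by -1.66 between 4–18 and 3–44 and by -1.21 between 4–18 and shRNA3T. *Cxcl2* differed by -1.08 and -1.28 in the same comparisons. *Cxcl10* differed by 1.04 between 3–44 and shRNA3T, which carry the same shRNA3.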

How the results depend on the processing

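Among the members and *Pdrg1*, no called value changed its direction under any alternative, and 55 values that were called under neither setting changed sign. For the wider lists the alternatives were followed by counts only, not gene by gene. Counts of members here leave out *Cxcl1* against CN-10 (3 in 4–18, 2 in 3–44 and 0 in shRNA3T). Leaving out 1 array at a time, members called were 2 to 3 in 4–18, 1 to 2 in 3–44 and 0 to 0 in shRNA3T against CN-10, 1 to 3 in 4–18 against 3–44, 2 to 3 in 4–18 against shRNA3T and 0 to 1 in 3–44 against shRNA3T. Genes of the wider lists called were 9 to 13, 3 to 5, 1 to 4, 9 to 12, 10 to 15 and 2 to 5 in the same order. *Pdrg1* lay between -0.92 and -0.33 in 4–18, -1.09 and -0.74 in 3–44 and -0.93 and -0.72 in shRNA3T.

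Scaling and the fold limit both moved the counts. With the 75th percentile the wider lists gave 21 calls in 4–18 (11 lower, 10 higher), 7 in 3–44 and 7 in shRNA3T against CN-10, 20 in 4–18 against 3–44 and 30 in 4–18 against shRNA3T (7 lower, 23 higher), and members 1 in shRNA3T, 7 in 4–18 against shRNA3T (3 lower, 4 higher, among the latter *Ccl2* and *Ccl20* at background) and 2 in 3–44 against shRNA3T (1 each way). With median centring the wider lists gave 20 in 4–18 (8 lower, 12 higher), 16 in 4–18 against 3–44 and 25 in 4–18 against shRNA3T, and members 5 in 4–18 and 4 in 4–18 against shRNA3T, the higher ones, *Ccl20* and *Tnfaip3*, at background on most or all arrays. With no scaling, and with the deposited series values, members were 1 in 3–44 and 0 in 3–44 against shRNA3T, and the wider lists 1 in 3–44, 1 in shRNA3T and 1 in 3–44 against shRNA3T. In the deposited values replicate 4 of 4–18 stood apart from its group by its higher median. The median over all probes in 4–18 shifted by 0.20 with the 75th percentile, 0.39 with median centring and 0.15 with no scaling. *Pdrg1* in 4–18 was called at -1.27 with median centring, -1.51 with no scaling and -1.52 with the series values. With no background correction members were 1 in 3–44, 1 in 4–18 against 3–44 and 0 in 3–44 against shRNA3T. Array weights gave 1 in 3–44 and 0 in 3–44 against shRNA3T, and 2 wider genes in 3–44. With replicate 1 of every group left out members were 1 in 3–44 and 0 in 3–44 against shRNA3T, and wider genes 2 in 3–44. A 1.5-fold limit gave members 1 in shRNA3T, 5 in 4–18 against shRNA3T and 2 in 3–44 against shRNA3T, and wider genes 24, 12, 12, 30, 29 and 10 in the order above. The cause of these shifts was not tested. Same-numbered arrays of different groups correlated between -0.12 and 0.48 in their deviations (median 0.13, 14 of 24 pairs over 0.1). Differently numbered ones had a median of -0.03 (12 of 72 over 0.1). Of the 16 arrays, 7 correlated best with one of their own number. Not every same-numbered pair passed 0.1, so the main model does not pair the samples, though same-numbered arrays were more alike at the median. What arrays of a number share was not tested. The replicate block left the counts of members at 3, 2 and 0 against CN-10 and changed no count by over 1.5 times, and under it the adjusted p of *Pdrg1* was 0.0176 in 4–18, 0.0108 in 3–44 and 0.0183 in shRNA3T, and that of *Cxcl1* in 3–44 against shRNA3T was 0.0273, at 0.45 and under 2-fold. *Ccl2*, *Ccl20* and *Tnfaip3*, at background in CN-10, cannot show a fall.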
